A study of Mus musculus with 15 samples.

Results

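The comparison described here set Susd2-/- CD8 T cells taken after 3 days with an antigenic peptide against Susd2-/- CD8 T cells that had not been treated. It rests on 4 of the 8 libraries of the series, 2 for each day, chosen by their labels alone. The cells came from the spleens of OT-I mice of the C57BL/6 strain, 8 to 10 weeks old, that lacked Susd2, a gene for a membrane protein with a sushi domain. OT-I mice carry a rearranged T cell receptor transgene that recognises the ovalbumin peptide OVA257-264 on the class I molecule H2-K1, and this transgene was shared by every group. In the day 0 group (libraries 3 and 4) CD8 T cells were purified from untreated splenocytes, and in the day 3 group (libraries 1 and 2) the splenocytes were first stimulated with OVA257-264. The wild-type (WT) OT-I groups, with 2 libraries on each day and the same treatments, are used only where a difference between the genotypes is given. The labels do not say how the Susd2 allele was made, whether the controls were littermates, or whether each library stands for a mouse of its own. P-values therefore reflect how far these libraries scatter, and that scatter may be technical. Time in culture, peptide and the other cells of the culture changed together and cannot be told apart.

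A resting CD8 T cell is small, does not divide and circulates between blood and lymphoid organs under the control of transcription factors such as Klf2 and Tcf7. When its receptor binds peptide on an antigen-presenting cell, the cell enlarges, takes up sugar and amino acids, builds ribosomes, divides many times and arms itself with granzymes, perforin and cytokines. Genes of the resting state are shut down in the same period, and inhibitory receptors appear that later limit the response.

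The deposited counts of the 8 libraries came to between 26829807 and 53846911, and the deepest was library 2 of the Susd2-/- day 3 group. Susd2 (chromosome 10 at 75636706 to 75644008 on the minus strand in GRCm38) had 1 and 3 counts in the Susd2-/- day 0 libraries and 0 and 2 in the Susd2-/- day 3 libraries, against 90 and 80 counts and 16 and 10 counts in the WT libraries of the same days. None of the 15 CD8 T cell identity genes measured, which include the CD3 chains and Cd8a, had a mean below 125 CPM (counts scaled to a common library size by the trimmed mean of M-values) on either day in Susd2-/- cells. Libraries of the same day and genotype were very alike at day 0. The chi-square of their counts per degree of freedom was 6.30 for the Susd2-/- pair and 3.37 for the WT pair, against 3.01 to 3.17 for 2 lanes of 1 library and 15.96 and 12.5 for the day 3 pairs. Where the spread exceeds counting error this value also grows with depth, and the pairs were not brought to a common depth. Many of the results that turn on the day 0 spread are therefore also given with the day 0 libraries of each genotype summed and counted as 1. The test then called 5270 genes higher and 5671 lower at day 3 in Susd2-/- cells, and 364 for the difference between genotypes. The libraries were also not free of other spleen cells, whose marker genes are given near the end. Scaling by library totals alone moved the median log2 fold change of all genes from -0.12 to -0.32, and upper quartile scaling moved it to -0.31, so changes of that size depend on the scaling.

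Most of the transcriptome differed between the days. Of 16057 genes tested, 5891 (36.7%) were higher at day 3 and 6381 (39.7%) were lower at an adjusted p below 0.05 (edgeR's quasi-likelihood test with Benjamini-Hochberg adjustment), which is what rose and fell mean below. The counts of list members that follow are to be read against these shares, and they cover the members that passed a filter on low counts. A change of at least 2-fold was seen in 3761 rising and 4517 falling genes, one of at least 4-fold in 1745 and 2820, and one of at least 16-fold in 432 and 1002. These counts use fitted sizes, also for genes with no count in either library of 1 day (149 of the rises and 385 of the falls). For such genes the fitted size depends on a prior count. By fitted size, large changes were more often falls than rises. The median log2 fold change was 1.32 among the genes that rose and -1.75 among those that fell. Values are given for the day 0 libraries 3 and 4 and the day 3 libraries 1 and 2 in that order, log2 fold changes carry their standard error (SE), and n is 2 libraries a day throughout.

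**Figure D1:**
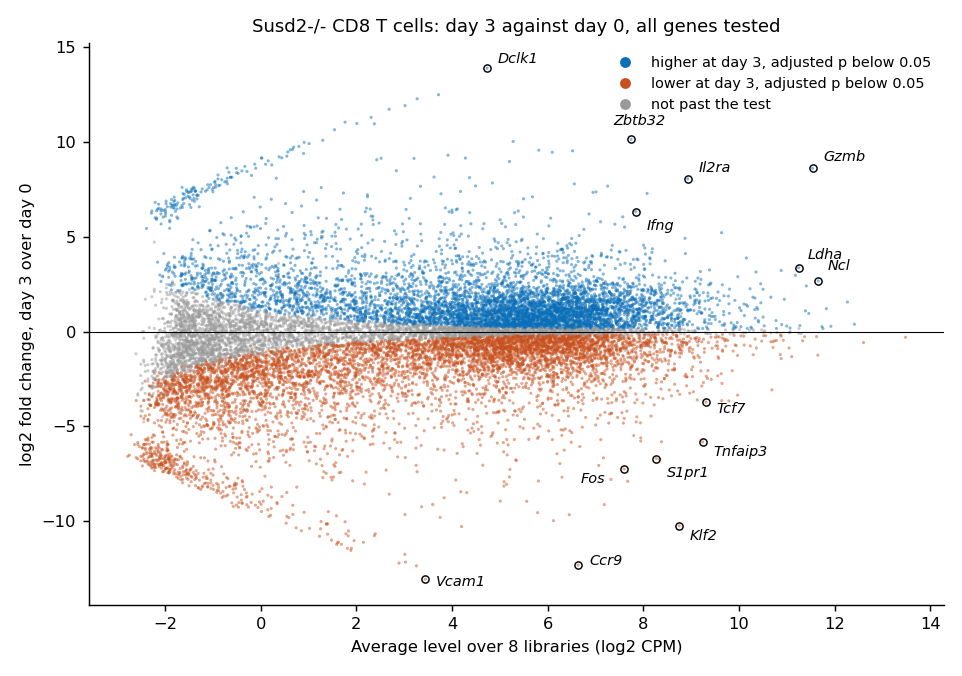
Each point is 1 of the 16057 genes tested, with its average level over the 8 libraries (log2 CPM) on the x axis and its log2 fold change between day 3 and day 0 in Susd2-/- cells on the y axis. The 5891 blue points rose and the 6381 orange points fell. Gzmb lies far to the upper right and Klf2 to the lower right, and the thin outer bands are genes with no count in the libraries of 1 day. Their fitted fold changes depend on the prior count. The text gives them as the size of no single gene, but they enter its counts by fold size and its medians.

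By share of the counted reads, which depends on transcript length as well as on transcript number, the gene that gained most was Gzmb, which encodes the protease granzyme B. Gzmb (chromosome 14 at 56258838 to 56262260 on the minus strand in GRCm38) stood at 15.3 and 13.3 CPM at day 0 and at 5108 and 6048 CPM at day 3, a log2 fold change of 8.61 ± 0.110 (adjusted p = 2.54e-19). The next gains were those of Hsp90ab1, Ncl, Ldha and Npm1. Ncl, the nucleolar protein nucleolin, went from 886 and 876 to 5696 and 5522 CPM and Npm1, which works in ribosome assembly, from 890.1 and 839.8 to 4430.2 and 4740.1 CPM. Ldha, the enzyme that turns pyruvate into lactate, went from 442 and 408 to 4287 and 4473 CPM. These 5 genes encode an effector protease, a chaperone, a glycolytic enzyme and 2 nucleolar proteins. Losses of share were led by Macf1, a large cytoskeletal linker, which went from 3058 and 3521 to 409 and 374 CPM.

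Genes of the resting state fell almost without exception. Among 34 measured genes of the naive and quiescence list, 0 rose, 32 fell and 2 did not pass the test, and the median log2 fold change was -3.31 against -0.12 over all genes. Klf2 (chromosome 8 at 72319033 to 72321656 on the plus strand), a transcription factor that keeps T cells quiescent and recirculating, had 1132 and 1002 CPM at day 0 and 0.707 and 0.985 CPM at day 3. Its log2 fold change was -10.24 ± 0.124 (adjusted p = 1.50e-20). S1pr1, the receptor that lets T cells leave lymphoid organs and a known target of Klf2, went from 679 and 637 to 6.13 and 6.50 CPM. The 2 days did not overlap for either gene.

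Other members of the list fell by less and stayed easily measurable. Tcf7, a transcription factor of naive and memory cells, went from 1264 and 1181 to 94.1 and 92.4 CPM (log2 fold change -3.71 ± 0.0720). Il7r, the receptor chain for the survival cytokine interleukin-7, went from 779 and 784 to 74.8 and 75.3 CPM. Ccr7, the chemokine receptor that brings T cells into lymph nodes, fell by less, with a log2 fold change of -1.70 ± 0.0736 and 223 and 203 CPM at day 3. The 2 members that did not pass the test were Id3 (30.5 and 30.8 CPM on the 2 days) and Dapl1 (102 and 95.6 CPM), and neither kept its sign under every alternative. Dapl1 was lower without day 0 library 4 (log2 fold change -0.22, adjusted p = 0.0344) and passed as lower by upper quartile scaling and library totals, but was at 0.11 (adjusted p = 0.37) without day 0 library 3.

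Receptors that direct T cells to tissues were mostly lower at day 3. Of 29 homing receptors and integrins, 4 rose, 24 fell and 1 did not pass the test, with a median log2 fold change of -1.65. Ccr9, which guides cells to the small intestine, had 6641 and 6032 counts in the day 0 libraries and 2 and 1 counts in the day 3 libraries. Cxcr4, the receptor for the chemokine of bone marrow stroma, went from 576 and 528 to 2.19 and 2.40 CPM. S1pr5 had 239 and 165 counts at day 0 and none at day 3, at least 178-fold lower when 3 counts over the day 3 group are taken as the floor. The 4 that rose were Ccr4, Ccr8, Itgav and Itgb1. Ccr4 went from 4.81 and 3.66 to 56.7 and 60.4 CPM, Ccr8 from 0.506 and 0.615 to 8.35 and 10.3 CPM and the integrin chain Itgb1 from 99.9 and 96.0 to 579.6 and 578 CPM. Cxcr3, an inflammatory chemokine receptor often high on effector cells, fell from 16.1 and 13.8 to 6.47 and 8.39 CPM.

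The receptor complex itself and its first signalling steps were mostly lower at day 3. Of the 15 CD8 T cell identity genes, 2 rose, 12 fell and 1 did not pass the test, with a median log2 fold change of -0.74. Cd8a went from 1226 and 1196 to 719 and 729 CPM, Cd8b1, the other coreceptor chain, from 846 and 769 to 251 and 277 CPM, and Cd3e from 217 and 214 to 125 and 125 CPM. Of the 2 members that rose, Cd2 went from 349 and 338 to 468 and 469.6 CPM and Thy1 from 866 and 837 to 1031 and 913 CPM. The rise of Thy1 (log2 fold change 0.19 ± 0.0653) lost its call without day 0 library 4 (adjusted p = 0.0804), without day 3 library 1 (adjusted p = 0.178) and with the day 0 libraries summed (adjusted p = 0.183), and by library totals the value was -0.011. The summed level of the 15 genes was 10614 and 10239.5 CPM at day 0 and 6796 and 6839.9 CPM at day 3, so the libraries of both days had the transcripts of CD8 T cells as labelled. In bulk RNA, fewer cells of a type and less RNA per cell cannot be told apart.

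Of 25 genes of T cell receptor signalling, 4 rose, 16 fell and 5 did not pass the test (median log2 fold change -1.06). Txk, a tyrosine kinase of resting T cells, went from 162 and 182 to 4.34 and 4.79 CPM, and Dgka, a kinase that removes the second messenger diacylglycerol, from 1045 and 1010.1 to 161 and 158 CPM. Both are members that fell by more than the list's median. The adaptor Lat fell by 0.98 on the log2 scale and the adaptor Lcp2 rose by 0.65. The members that rose were Lcp2, the adaptor Sh2d2a and 2 negative regulators. Cblb, an E3 ubiquitin ligase that restrains the receptor, went from 122 and 126 to 335 and 315 CPM, and Ubash3b, a phosphatase of the same pathway, from 45.4 and 44.8 to 101 and 106 CPM.

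Activation antigens moved in both directions, 16 up and 10 down of 28 measured, with the largest changes upward. Il2ra (chromosome 2 at 11642807 to 11693193 on the plus strand), the high-affinity chain of the interleukin-2 receptor, had 3.10 and 4.17 CPM at day 0 and 940.2 and 982 CPM at day 3, a log2 fold change of 8.05 ± 0.106 (adjusted p = 1.63e-20). Tnfrsf9, the costimulatory receptor 4-1BB, went from 3.83 and 2.70 to 473 and 553 CPM, and Cd44, an adhesion molecule that marks antigen-experienced cells, from 43.1 and 43.2 to 252 and 250.1 CPM. Cd80, better known as a ligand on antigen-presenting cells, also rose, from 1.30 and 0.684 to 86.9 and 78.0 CPM. Cd69, an antigen that appears in the first hours of activation, was instead lower at day 3, at 91.7 and 93.7 CPM against 534 and 524 CPM at day 0. Slamf6 and Tnfrsf25 fell as well, to 14.2 and 1.73 CPM on average.

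**Figure D2:**
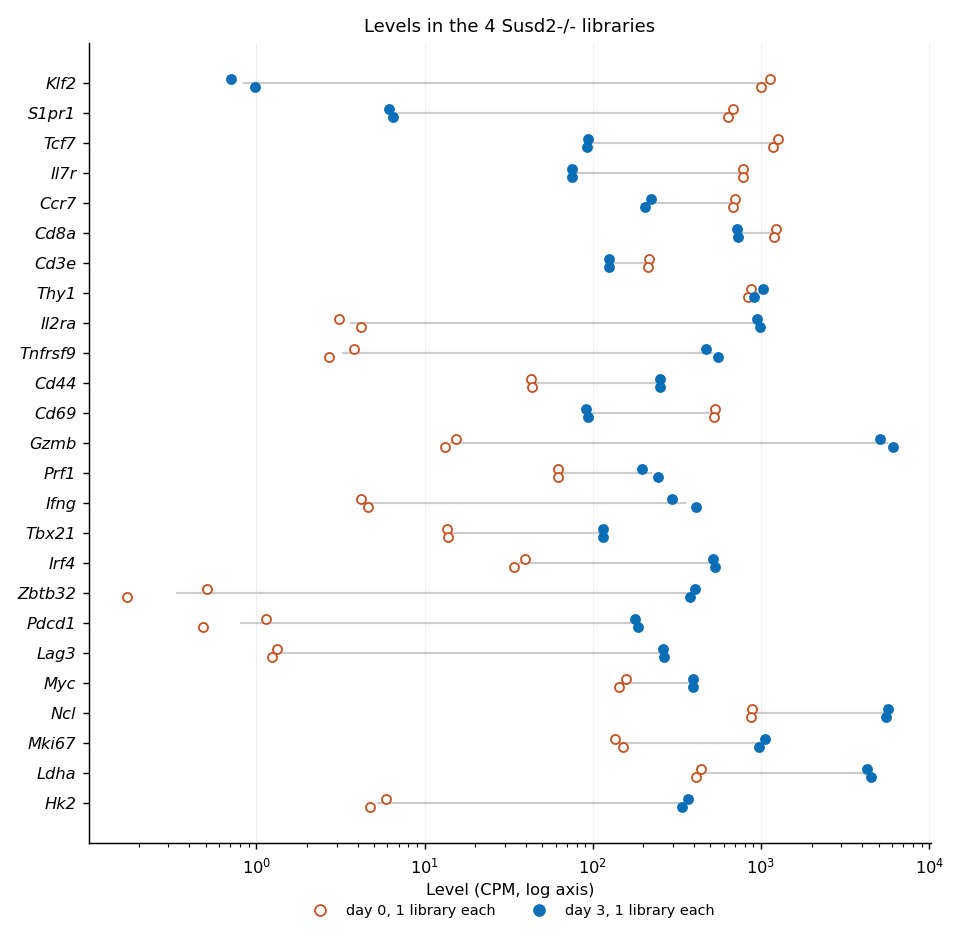
Levels of 25 genes (CPM, log axis) in the 4 Susd2-/- libraries, with open orange circles for the 2 day 0 libraries, filled blue circles for the 2 day 3 libraries and a grey line joining the means of the days. The days do not overlap for any of the 25 genes, and Thy1 has the narrowest distance between them.

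Effector genes moved in both directions. Of 23 effector genes, 12 rose, 10 fell and 1 did not pass the test, and the median log2 fold change was 0.42, while single members moved far. Prf1, the pore-forming perforin, went from 62.2 and 61.9 to 195 and 245 CPM (log2 fold change 1.83 ± 0.122). Serpinb9, an inhibitor of granzyme B that protects the cell carrying it, went from 19.4 and 22.4 to 216 and 256 CPM. Gzma, another granzyme, went the opposite way from Gzmb, with 35.0 and 32.4 CPM at day 0 and 0.741 and 0.394 CPM at day 3 (log2 fold change -5.99 ± 0.205, adjusted p = 6.65e-15). Ctsw, a protease of cytotoxic lymphocytes, and the lysosomal protease Ctsd also fell, by 2.61 and 1.76 on the log2 scale. Gzma is expressed by natural killer cells too, whose 12 markers fell from a summed 38.0 and 44.2 CPM to 4.41 and 5.40 CPM, and their part in the fall of Gzma was not tested.

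Cytokine transcripts rose in 17 of 23 measured genes and fell in 5, with a median log2 fold change of 2.98 (2.92 with genes absent on 1 day set to their bound). Ifng (chromosome 10 at 118441046 to 118445892 on the plus strand), the main antiviral and macrophage-activating cytokine of CD8 T cells, had 4.21 and 4.61 CPM at day 0 and 295 and 410.4 CPM at day 3 (log2 fold change 6.32 ± 0.263, adjusted p = 5.24e-06). Tnf, the tumour necrosis factor gene, reached 12.5 and 15.8 CPM from 2.94 and 3.59 CPM. Il3, a haematopoietic growth factor, had no count at day 0 and 212 and 406 counts at day 3, at least 156-fold higher with 3 counts over the day 0 group as the floor. Il2 itself was near 0, at 0 and 0.273 CPM at day 0 and 0.775 and 0.295 CPM at day 3, and did not pass the test, although it passed as higher without day 0 library 4 (adjusted p = 0.0194), without WT day 3 library 2 (adjusted p = 0.0343) and with no low count filter (adjusted p = 0.0324). The 5 that fell were Ccl5, Ccl9, Il16, Ltb and Tnfsf8, but Ccl9 lost its call without day 0 library 3 (adjusted p = 0.108), and Tnfsf8 without day 0 library 4 (adjusted p = 0.0789) and on lane 1 alone (adjusted p = 0.0857). Ccl5, a chemokine of memory and effector cells, fell from 84.1 and 76.2 to 6.03 and 4.77 CPM, and Ltb, the lymphotoxin beta gene, from 521 and 459 to 76.9 and 44.5 CPM.

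Cytokine receptors fell more often than they rose. Of 38 genes of cytokine receptors and their STAT feedback, 12 rose, 21 fell and 5 did not pass the test. Those that rose included receptors for interleukin-2 and interleukin-12 and feedback inhibitors downstream of them. Il2rb, the beta chain that pairs with Il2ra, went from 359 and 365 to 863 and 887 CPM, while Il2rg, the chain shared by the receptor family, fell from 254 and 241 to 123.9 and 120.4 CPM. Il12rb2, a chain of the interleukin-12 receptor, went from 4.81 and 4.99 to 212 and 199.8 CPM. The inhibitors Socs2 and Cish, which STAT5 induces, went from 0.823 and 1.37 to 66.7 and 62.9 CPM and from 7.06 and 6.46 to 116 and 127 CPM. The fall of Il2rg and the rise of Il2ra were both larger than the distance between libraries of a day.

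Transcription factors of effector and memory cells fell more often than they rose (20 and 10 of 34), yet the largest changes were rises. Zbtb32, a repressor induced in activated lymphocytes, had 0.506 and 0.171 CPM at day 0 and 407 and 380.3 CPM at day 3 (log2 fold change 10.14 ± 0.146, adjusted p = 1.18e-19). Batf3, a factor of the AP-1 family, went from 0.190 and 0.0684 to 108 and 97.2 CPM and Irf8 from 8.86 and 6.84 to 371 and 347 CPM. Irf4, which scales with the strength of receptor signals, went from 39.3 and 34.1 to 519 and 529 CPM. Tbx21, the gene of T-bet, which drives effector differentiation, rose from 13.7 and 13.7 to 115 and 114 CPM, whereas Eomes, its relative in memory cells, fell from 29.3 and 29.5 to 5.93 and 6.36 CPM. Prdm1, which encodes Blimp-1 of terminal effector cells, rose from 3.20 and 3.14 to 9.90 and 9.95 CPM.

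Inhibitory receptors rose in 12 and fell in 10 of 23 measured genes. Pdcd1, the gene of PD-1, went from 1.14 and 0.479 to 179 and 185 CPM (log2 fold change 7.79 ± 0.153, adjusted p = 4.83e-17), and Lag3, which binds class II molecules, from 1.33 and 1.23 to 260.4 and 263 CPM. Ctla4, a competitor of Cd28 for its ligands, rose from 43.6 and 45.7 to 523 and 520.5 CPM. Vsir, an inhibitory receptor of resting T cells, fell from 376 and 371 to 27.8 and 27.6 CPM. Klrg1, a marker of terminal effector cells, had 137 and 106 counts at day 0 and none at day 3 (at least 107-fold lower).

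Early genes of T cell stimulation were mostly lower at day 3 than in the untreated cells. Of 37 immediate early and receptor-induced genes, 11 rose, 25 fell and 1 did not pass the test, with a median log2 fold change of -1.08. Fos (chromosome 12 at 85473890 to 85477273 on the plus strand), a subunit of AP-1, had 565 and 537 CPM at day 0 and 3.13 and 3.98 CPM at day 3 (log2 fold change -7.24 ± 0.0960, adjusted p = 1.50e-20). Dusp1, a phosphatase that turns off MAP kinases, went from 399 and 374 to 7.91 and 7.11 CPM. Nr4a1, a nuclear receptor widely used to report receptor signals, fell from 221 and 213 to 80.9 and 89.2 CPM, while its relative Nr4a3 rose from 19.2 and 20.3 to 306 and 287 CPM. Atf3, a stress-induced factor, rose from 6.49 and 6.08 to 105 and 115 CPM and Rgs16, a regulator of G protein signals, from 0.823 and 0.615 to 103 and 96.8 CPM. How long the untreated cells were handled before lysis is not given, and the part of handling in these values was not tested.

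The genotypes differed in most members of this list. The interaction, the Susd2-/- day difference minus the WT day difference, passed the test in 2164 of all genes (13.5%, 6.60% more positive and 6.88% more negative in Susd2-/- cells), and in 29 of the 37 immediate early genes, all 29 more negative in Susd2-/- cells (21 with the day 0 libraries summed). In WT cells 13 of the 37 rose and 16 fell, against shares over all genes of 36.2% and 39.0%. Nr4a1 fell by 1.35 on the log2 scale in Susd2-/- cells and had a log2 fold change of 0.18 in WT cells (interaction -1.53 ± 0.0975, adjusted p = 1.07e-08). Its WT levels were 80.5 and 82.1 CPM at day 0 and 95.0 and 89.2 CPM at day 3, so that the genotypes stood further apart at day 0 than at day 3. Atf3 rose in both genotypes, by 4.13 in Susd2-/- and by 7.47 in WT cells (interaction -3.34 ± 0.182, adjusted p = 2.55e-09). For Atf3 the WT libraries had 0.687 and 0.683 CPM at day 0 and 121 and 122.7 CPM at day 3.

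Most genes of the NF-kB list fell as well. Of 26 genes, 6 rose, 18 fell and 2 did not pass the test. Tnfaip3 (chromosome 10 at 19000910 to 19015657 on the minus strand), which encodes the inhibitor A20, had 1735 and 1741 CPM at day 0 and 30.0 and 31.6 CPM at day 3 (log2 fold change -5.82 ± 0.0842). The inhibitor Nfkbia fell from 226 and 208 to 71.5 and 66.0 CPM. Among subunits, Nfkb1 rose from 287 and 282 to 820.5 and 798 CPM and Nfkb2 from 115 and 109.5 to 231 and 185 CPM, but Rela fell from 117 and 108 to 81.5 and 80.9 CPM.

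Every gene of the DNA replication list rose, 47 of 47, with a median log2 fold change of 2.67 and a range of 0.57 to 5.53. Mcm2, a subunit of the replicative helicase, went from 104 and 90.7 to 472 and 444 CPM and Pcna, the sliding clamp of DNA polymerases, from 221 and 214 to 867 and 929 CPM. Orc1 and Cdc6, which load the helicase on origins, went from 1.58 and 1.44 to 68.1 and 71.5 CPM and from 6.36 and 7.42 to 171 and 174 CPM. No library of day 0 reached the day 3 level of any of these 4 genes. E2F factors drive many genes of this kind through sites close to the start of transcription, and the promoter of Uhrf1, a replication-coupled chromatin protein that went from 33.6 and 31.1 to 458 and 439.6 CPM, is shown with such a site in capitals. The sequence is from RefSeq (GRCm38.p6, chr17:56304063-56304362, plus strand), 250 bases before to 50 after the start.
Uhrf1: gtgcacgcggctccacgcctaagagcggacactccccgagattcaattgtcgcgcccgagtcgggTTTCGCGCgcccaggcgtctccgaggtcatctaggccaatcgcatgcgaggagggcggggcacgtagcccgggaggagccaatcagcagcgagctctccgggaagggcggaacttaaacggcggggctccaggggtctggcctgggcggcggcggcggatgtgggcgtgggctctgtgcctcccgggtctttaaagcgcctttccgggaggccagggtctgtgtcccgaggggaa
Sites were searched on both strands as TTTCCCGC, TTTGGCGC or TTTCGCGC. RefSeq's table held a window for 37 of the 47 genes, a smaller part than for the lists whose shares are given below, so that comparison is void.

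Mitosis genes had the highest median log2 fold change of the lists plotted, 3.58. Of 48 genes, 46 rose, 1 fell and 1 did not pass the test. Cdk1, the kinase that drives entry into mitosis, went from 7.82 and 7.83 to 161 and 169.5 CPM, and its cyclin Ccnb1 from 6.30 and 7.01 to 328 and 345 CPM (log2 fold change 5.66 ± 0.108, adjusted p = 2.35e-17). Mki67, a marker of cycling cells, went from 135 and 152 to 1052 and 973 CPM, so the transcript was present before the culture. The 1 gene that fell was Cdc25b, a phosphatase of the same transition, from 101 and 100.5 to 85.2 and 82.5 CPM, a call lost without day 0 library 3 (adjusted p = 0.0797). The summed level of the 48 genes was 1825 and 1880 CPM at day 0 and 9788 and 9748 CPM at day 3 in Susd2-/- cells. In WT cells it was 1537 and 1528 CPM at day 0 and 9922 and 9751 CPM at day 3. The genotypes thus stood further apart at day 0 than at day 3. In 34 of the 48 genes the interaction passed the test, and in 33 of these the Susd2-/- difference was the smaller one (24 with the day 0 libraries summed). Ccnb1 was not among them (interaction adjusted p = 1), while Plk1, a mitotic kinase, rose by 4.57 in Susd2-/- and 5.50 in WT cells (adjusted p = 0.00242).

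Promoters of mitotic genes often hold the cell cycle homology region, TTTGAA, which is searched for here on both strands. It was in 31 of 42 windows of the mitosis list (73.8%), against 12.5% of the 13435 windows of tested genes and 17.9% of all 32851 windows. The window of Hmmr, a protein of the spindle that went from 7.50 and 7.49 to 186 and 192 CPM, is shown with the match in capitals (chr11:40733388-40733687, minus strand).
Hmmr: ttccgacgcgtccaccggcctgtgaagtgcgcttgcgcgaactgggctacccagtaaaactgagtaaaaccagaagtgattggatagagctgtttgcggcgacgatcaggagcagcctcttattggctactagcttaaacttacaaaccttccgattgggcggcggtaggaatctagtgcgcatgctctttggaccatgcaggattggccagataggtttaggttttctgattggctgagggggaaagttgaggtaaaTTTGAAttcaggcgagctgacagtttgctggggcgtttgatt
The match lies 8 to 13 bases after the start and describes the letters there, not a measured binding site.

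Upstream regulators of the cell cycle mostly rose. Of 28 G1 cyclins, E2F factors and CDK inhibitors, 21 rose, 6 fell and 1 did not pass the test. Ccne1, the cyclin of S phase entry, went from 16.04 and 16.5 to 164 and 177 CPM, E2f1 from 13.2 and 11.1 to 51.0 and 50.02 CPM and Ccnd2, a D cyclin, from 392 and 398 to 760.3 and 794 CPM. Cdkn1b, the inhibitor p27 of resting lymphocytes, fell from 315 and 319 to 24.6 and 22.9 CPM, whereas Cdkn1a, the inhibitor p21, rose from 2.25 and 1.88 to 40.0 and 37.1 CPM. Of 27 DNA repair and checkpoint genes, 23 rose, 1 fell and 3 did not pass the test. Atm, a kinase that senses breaks, was the member that fell, by 0.77 on the log2 scale. Replication-dependent histone genes, whose messages lack a poly(A) tail and are poorly captured by the poly(A) selection used, rose in 16, fell in 4 (H1f2, H1f4, H2bc4 and H2bc21) and did not pass in 20 of 40, and 2 fell without day 3 library 2.

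Myc, the transcription factor that drives growth in activated T cells, was at 157 and 142 CPM at day 0 and 394 and 394 CPM at day 3, a log2 fold change of 1.40 ± 0.0750 (adjusted p = 4.05e-12). Mxd4, which competes with Myc for Max, fell from 143 and 159 to 1.41 and 1.95 CPM and Mxd1 from 53.4 and 45.6 to 6.06 and 4.33 CPM. The partner Max hardly moved (138 and 132 and 161 and 154 CPM), although it passed the test (log2 fold change 0.22 ± 0.0624), a call lost by upper quartile scaling (0.034), by library totals (0.020) and with the day 0 libraries summed (adjusted p = 0.0782). Of the 14 genes of the network, 6 rose, 6 fell and 2 did not pass the test.

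All 45 ribosome biogenesis genes rose, between 0.67 and 2.84 on the log2 scale (median 1.67). Beside Ncl and Npm1, given above, Lyar, a nucleolar factor, went from 44.7 and 46.7 to 362 and 272 CPM and Nhp2, a protein of small nucleolar particles, from 57.0 and 53.0 to 383 and 406 CPM. In all 45 both day 3 libraries lay above both day 0 libraries. Myc and its relatives bind the E-box CACGTG, which was found in 10 of 48 windows of the list (20.8%), 9.75% of windows of tested genes and 7.15% of all windows. The window of Mybbp1a, a nucleolar protein that went from 296 and 283 to 1237 and 1225 CPM, has its match 40 to 45 bases after the start (chr11:72441077-72441376, plus strand), shown in capitals.
Mybbp1a: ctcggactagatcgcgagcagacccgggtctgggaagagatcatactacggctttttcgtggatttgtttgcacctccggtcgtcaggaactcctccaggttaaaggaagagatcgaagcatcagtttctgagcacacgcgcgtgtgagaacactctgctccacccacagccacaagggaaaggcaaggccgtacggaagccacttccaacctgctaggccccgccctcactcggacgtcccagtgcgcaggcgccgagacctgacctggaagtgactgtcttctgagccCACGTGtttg

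The proteins of the cytosolic ribosome itself did not rise as a group. Of 77 genes, 26 rose, 29 fell and 22 did not pass, with a median log2 fold change of -0.026, and the split was 14 up and 45 down by library totals, 16 up and 44 down by upper quartile scaling, and 31 up and 17 down without day 0 library 3. Rps2 rose from 1714 and 1569 to 3611 and 3401 CPM and Rps27 fell from 1291 and 1059 to 475 and 509 CPM, and how reads of their many pseudogenes were counted is not given in the sources used here. In WT cells 8 of the 77 rose and 60 fell, and the interaction passed the test in 63 genes, every one of them more positive in Susd2-/- cells (32 with the day 0 libraries summed). The WT libraries of Rps27 held 1893 and 1888 CPM at day 0 and 449.9 and 467 CPM at day 3. Mitochondrial ribosomal proteins behaved differently, with 71 of 74 higher and 1, Mrpl24, lower (median 1.51). Mrpl12 went from 35.6 and 31.6 to 210.2 and 213 CPM.

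Genes of translation and of amino acid supply mostly rose. Of 44 translation factors, 37 rose, 2 fell and 5 did not pass the test. The 2 that fell were Eef1a1 and Eif4ebp2, and Eif4e, which binds the cap of messages, went from 56.2 and 49.0 to 289.6 and 304 CPM. Eef1a1, an elongation factor, fell from 12452 and 11501 to 9569.9 and 9879 CPM (log2 fold change -0.30 ± 0.0678), a call lost without day 0 library 3 (adjusted p = 0.118). All 20 aminoacyl-tRNA synthetases rose (median 2.03), and Aars, which charges alanine, went from 44.6 and 42.9 to 319.6 and 300.4 CPM. Of 31 genes of amino acid transport and response, 28 rose, 2 fell and 1 did not pass the test. Slc7a5, the transporter of large neutral amino acids, went from 48.6 and 46.9 to 486 and 465 CPM, and Asns, asparagine synthetase, from 0.823 and 0.410 to 74.2 and 86.4 CPM (log2 fold change 7.00 ± 0.309, adjusted p = 2.68e-07). Psat1, an enzyme of serine synthesis, went from 37.5 and 35.0 to 542 and 536 CPM. Slc38a2, another amino acid transporter, and Ddit3, the stress factor CHOP of the same response, were the 2 that fell, Ddit3 from 43.2 and 34.8 to 7.61 and 7.88 CPM.

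Atf4, the factor of the amino acid response, binds composite elements holding TGATGCAA. These letters were in 5 of 29 windows of the amino acid list (17.2%) and in 0.640% of windows of tested genes and 0.895% of all windows. The window of Got1, an aspartate aminotransferase that went from 29.3 and 26.7 to 149 and 151 CPM, holds the motif on its opposite strand, as TTGCATCA in capitals, 102 to 95 bases before the start (chr19:43524556-43524855, minus strand).
Got1: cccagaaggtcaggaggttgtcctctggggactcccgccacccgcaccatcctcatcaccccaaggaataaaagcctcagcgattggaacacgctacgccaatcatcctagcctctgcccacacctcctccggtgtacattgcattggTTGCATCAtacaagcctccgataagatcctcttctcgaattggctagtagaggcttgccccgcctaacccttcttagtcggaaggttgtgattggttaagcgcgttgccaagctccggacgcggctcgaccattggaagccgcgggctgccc

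Glycolysis rose almost as a whole. Of 29 genes, 25 rose, 1 fell and 3 did not pass the test, with a median log2 fold change of 2.89. Slc2a1, the glucose transporter GLUT1, went from 31.9 and 33.6 to 201 and 206 CPM, Hk2, the hexokinase that traps glucose, from 5.89 and 4.72 to 368 and 338 CPM and Slc16a3, which exports lactate, from 1.30 and 1.67 to 276 and 214 CPM (log2 fold change 7.37 ± 0.314, adjusted p = 5.85e-06). Transcripts for import, trapping, conversion to lactate and export were all higher at day 3. Tpi1 rose from 43.6 and 40.6 to 1559 and 1570.5 CPM, but it can share reads with pseudogenes and its size is uncertain. Pdk1, a kinase of pyruvate dehydrogenase, was the gene that fell, from 219 and 220.4 to 116 and 122 CPM.

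Mitochondrial genes of the nucleus rose by smaller amounts. Of 22 genes of the TCA cycle and pyruvate entry, 21 rose and 1, Idh2, fell (median 0.95), though the fall of Idh2 lost its call without any 1 library except Susd2-/- day 0 library 4, and Cs, citrate synthase, went from 164 and 151 to 446 and 456 CPM. Of 77 respiratory chain subunits, 72 rose, 1 fell and 4 did not pass the test (median 1.15), the falling gene being Ndufa6. The interaction passed in 36 of the 77, all more positive in Susd2-/- cells, but in 22 without day 0 library 4 and in 7 with the day 0 libraries summed. Cycs, cytochrome c, had the largest rise of the list, from 37.2 and 34.9 to 231 and 250.05 CPM. The 13 genes encoded in the mitochondrion did not follow, with 1 up, 1 down and 11 not past the test. Of these mt-Co1 fell from 6788 and 6524 to 4398 and 4515 CPM and mt-Nd1 rose from 1612 and 1502 to 1668 and 1828 CPM, a rise that lost its call without day 0 library 4 (adjusted p = 0.174), without day 3 library 2 (adjusted p = 0.163) and with the day 0 libraries summed (adjusted p = 0.228), and that was -0.034 by library totals. Of 22 genes of import and genome maintenance, 18 rose and 1, Ppargc1b, fell, and Tomm40, the pore of the outer membrane, went from 41.8 and 40.0 to 259 and 216 CPM.

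Nuclear respiratory factor 1 binds GCGCATGC, searched for on both strands. The letters were in 11 of 69 windows of the respiratory chain list (15.9%), 4.95% of windows of tested genes and 2.71% of all windows. The window of Cycs holds it on the opposite strand, as GCATGCGC in capitals, 60 to 53 bases before the start (chr6:50566520-50566819, minus strand).
Cycs: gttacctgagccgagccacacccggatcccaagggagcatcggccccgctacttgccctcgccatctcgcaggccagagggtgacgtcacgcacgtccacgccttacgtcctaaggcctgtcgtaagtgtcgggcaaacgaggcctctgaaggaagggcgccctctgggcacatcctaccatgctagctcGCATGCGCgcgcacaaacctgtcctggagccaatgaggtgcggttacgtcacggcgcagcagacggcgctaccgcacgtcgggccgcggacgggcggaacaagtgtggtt

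Lipid synthesis genes rose. Of 33 genes of cholesterol and fatty acid synthesis, 30 rose, 2 fell and 1 did not pass the test (median 2.01). Fasn, fatty acid synthase, went from 204 and 201 to 1139 and 1092 CPM and Scd1, a desaturase, from 0.949 and 1.47 to 56.7 and 68.7 CPM. The 2 that fell, Abcg1 and Abca1, export cholesterol from the cell, and Abcg1 went from 103 and 104 to 9.83 and 10.1 CPM. Fatty acid oxidation was mixed, with 13 of 24 up and 9 down, and 9 up and 10 down by library totals. Cpt1a, which brings fatty acids into the mitochondrion, fell from 126 and 120.4 to 23.1 and 24.4 CPM. Hmgcs1, an early enzyme of cholesterol synthesis that went from 44.5 and 44.1 to 180.2 and 179 CPM, has the sterol regulatory element TCACCCCAC 137 to 129 bases before its start, shown in capitals (chr13:119690101-119690400, plus strand).
Hmgcs1: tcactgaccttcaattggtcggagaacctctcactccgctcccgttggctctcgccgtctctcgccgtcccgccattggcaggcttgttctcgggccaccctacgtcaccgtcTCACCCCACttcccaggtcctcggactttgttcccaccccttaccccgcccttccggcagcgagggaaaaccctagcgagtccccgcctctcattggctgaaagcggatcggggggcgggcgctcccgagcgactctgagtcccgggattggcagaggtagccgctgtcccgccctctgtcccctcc
RefSeq's table held 27 windows for 22 of the 33 genes, and 1 of these windows, that of Hmgcs1, had the element. The 22 genes are a smaller part of their list than in the lists whose shares are given, and that comparison is void. Nucleotide synthesis rose in 22 of 23 genes, among them Cad, which starts pyrimidine synthesis, from 121 and 125 to 681 and 671 CPM.

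**Figure D3:**
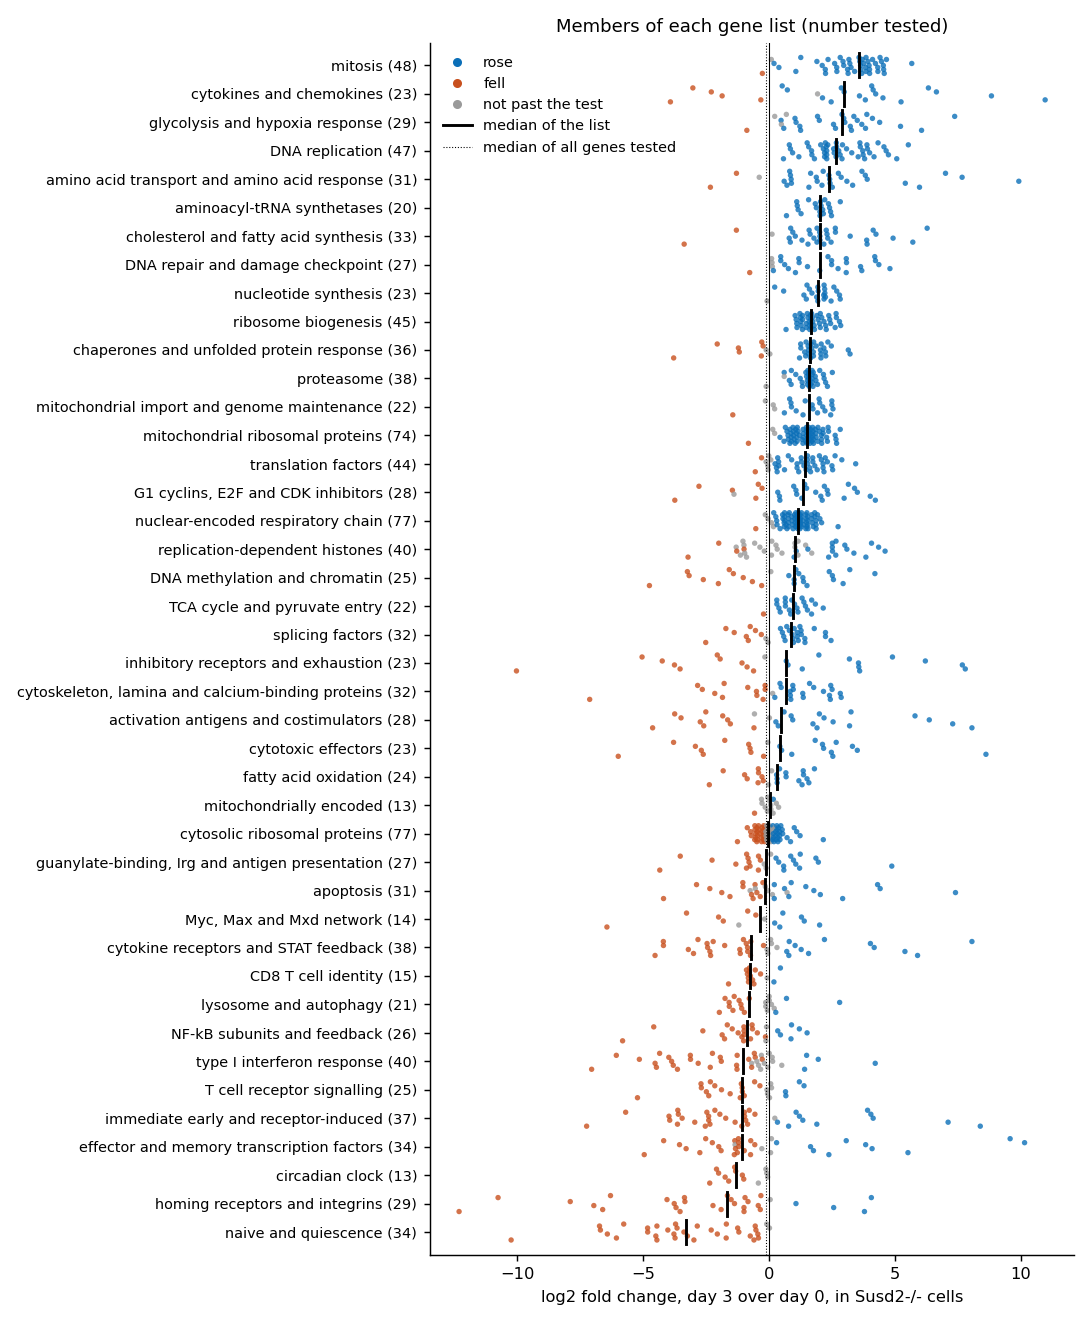
Log2 fold changes between day 3 and day 0 in Susd2-/- cells for the members of 42 gene lists, ordered by their medians (black bars), with the number of genes tested in parentheses. Blue points rose, orange points fell and grey points did not pass the test. Lists of division, growth and metabolism lie to the right, with DNA replication, ribosome biogenesis and the aminoacyl-tRNA synthetases having no point that fell, and the naive and quiescence list lies furthest to the left.

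Interferon-stimulated genes were mostly lower at day 3. Of 40 genes of the type I response, 4 rose, 25 fell and 11 did not pass the test, with a median log2 fold change of -1.04. Oas2, a sensor of double-stranded RNA, went from 61.4 and 61.0 to 0.472 and 0.453 CPM and Ifit3 from 31.3 and 26.7 to 0.741 and 0.236 CPM. Isg15, a ubiquitin-like protein of the response, did not pass the test (20.9 and 16.5 CPM at day 0 and 29.9 and 23.4 CPM at day 3), although it passed as higher in a fit of the Susd2-/- libraries alone (log2 fold change 0.53, adjusted p = 6.42e-05), and in the shared fit without WT day 3 library 1 (adjusted p = 1.05e-05) or 2 (adjusted p = 2.27e-05). The 4 that rose were Bst2, Eif2ak2, Ifitm3 and Ly6a, and Ly6a, the surface antigen Sca-1, went from 15.3 and 14.3 to 256 and 293 CPM. Genes that interferon gamma also induces, the guanylate-binding and Irg GTPases and antigen presentation genes, were split 12 up and 12 down of 27. Gbp2 rose from 70.9 and 67.2 to 166 and 154 CPM and Iigp1 from 2.91 and 1.44 to 66.8 and 61.8 CPM, while Gbp8 fell from 94.7 and 100.1 to 5.32 and 4.43 CPM and H2-K1 from 2972 and 2786 to 1255 and 1052 CPM. Reads shared between near-identical Gbp and H2 genes leave the size of each uncertain.

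Genes of protein folding and breakdown mostly rose. Of 38 proteasome genes 36 rose and none fell (median 1.59), Psmd1 going from 65.4 and 69.0 to 380.3 and 385 CPM. Of 36 chaperone and unfolded protein response genes, 27 rose, 7 fell and 2 did not pass the test. Hspd1, the chaperonin of the mitochondrion, went from 278 and 288 to 2446 and 2545 CPM and Hspa5, a chaperone of the endoplasmic reticulum, from 637 and 631 to 1462 and 1561 CPM. Among the members that fell, Dnajb1 went from 181 and 168 to 71.8 and 78.1 CPM and Hspa1b from 8.77 and 8.31 to 4.21 and 3.37 CPM.

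Apoptosis genes were balanced, 12 up and 13 down of 31. Bbc3 and Bcl2l11, which encode the killers Puma and Bim, fell from 109.7 and 103 to 9.77 and 2.78 CPM and from 133 and 137 to 28.8 and 24.2 CPM. Among protectors Bcl2l1, the gene of Bcl-xL, rose from 22.1 and 21.8 to 159 and 173 CPM and Bcl2 fell by 0.35 on the log2 scale.

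Chromatin enzymes moved in both directions. Dnmt1, which copies DNA methylation at replication, rose from 215 and 214 to 622 and 594 CPM and Ezh2, the methyltransferase of Polycomb, from 60.6 and 59.6 to 475 and 446 CPM, whereas Tet1, which oxidises methylcytosine, fell from 26.7 and 32.1 to 1.01 and 1.14 CPM and Kmt2d, a methyltransferase of enhancers, from 1008 and 1133 to 128 and 109 CPM. In the list of 25, 14 rose and 10 fell. Splicing factors rose in 22 and fell in 8 of 32, the kinases Clk1 and Clk4 being among those that fell (587 and 577 to 99.7 and 104 CPM and 140.0 and 144 to 42.8 and 43.7 CPM). Of 32 cytoskeletal, lamina and calcium-binding genes 19 rose and 12 fell. Lmnb1, a lamin of dividing cells, went from 73.5 and 75.0 to 434 and 407 CPM and Lgals1, galectin-1, from 79.9 and 71.5 to 527 and 573 CPM. Lysosome and autophagy genes fell in 11 and rose in 3 (Atg5, Gabarapl1 and Lamp2) of 21. The rise of Atg5 lost its call without day 0 library 4 (adjusted p = 0.0696), with the day 0 libraries summed (0.0914), on lane 1 alone (0.0913), by upper quartile scaling (0.427) and by library totals (0.505). Genes of the circadian clock fell in 9 and rose in none of 13. Per1 went from 183 and 191 to 44.5 and 43.3 CPM, and the hour of day at which cells were taken is not given in the labels.

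Markers of other spleen cells were present at day 0 and mostly lower at day 3. Of 18 monocyte and macrophage markers 17 fell and 1 rose, and their summed level went from 238 and 224 CPM to 42.7 and 41.7 CPM. Vcam1, high on red pulp macrophages, had 1038 and 940 counts at day 0 and none at day 3 (at least 872-fold lower), and 8 of the 18, including C1qa and Adgre1, had no count at day 3. The median of the list was -7.74, or -7.13 with genes at 0 set to their bound. The member that rose was Axl, a receptor for apoptotic cells, from 20.2 and 18.4 to 29.3 and 30.4 CPM. Of 18 B cell markers 16 fell and none rose, with a summed 709 and 642 CPM at day 0 and 308 and 296 CPM at day 3, most of it Ighm (623 and 562 CPM at day 0 and 288 and 276 CPM at day 3).

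Most of the other marker lists followed the same course. Of 12 natural killer markers 11 fell, of 8 gamma-delta T cell markers all 8 (summed 269 and 277 CPM at day 0 and 19.2 and 18.2 CPM at day 3), and of the 4 erythroid markers that passed the low count filter, out of 8 listed, all 4. All 5 platelet markers that passed fell too, but 2 of the 4 erythroid calls were lost without day 0 library 3 and 2 of the 5 platelet calls without day 3 library 2. The dendritic cell, neutrophil, mast cell and stromal lists had no member that rose, but only 5 of 10, 3 of 10, 5 of 6 and 3 of 8 of their listed genes were tested. Of the summed dendritic cell markers at day 0 nearly all was Ccr9 (210.2 and 206 CPM), the homing receptor of T cells described above. Of the summed stromal markers nearly all was Pecam1, an adhesion molecule (133 and 129.8 CPM at day 0 and 13.3 and 12.96 CPM at day 3). Trdc, the constant segment of the delta chain, was at 155 and 158 CPM at day 0 and 15.3 and 14.7 CPM at day 3. Which cells the transcripts of Pecam1 and of the gamma-delta markers came from was not tested. In the CD4 and regulatory T cell list the summed level rose from 59.8 and 63.4 CPM to 549 and 542 CPM, almost all of it from Ctla4, which activated CD8 T cells also express, while Cd4 had 0.0674 and 0 CPM and Foxp3 0.135 and 0.0985 CPM at day 3. Genes that fell and are also expressed by these cells, among them Cd86, Itgax and genes of the interferon list, moved together with their markers, and the part of the other cells in those falls was not tested. Cd86 went from 5.35 and 5.50 to 0.337 and 0.138 CPM.

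**Figure D4:**
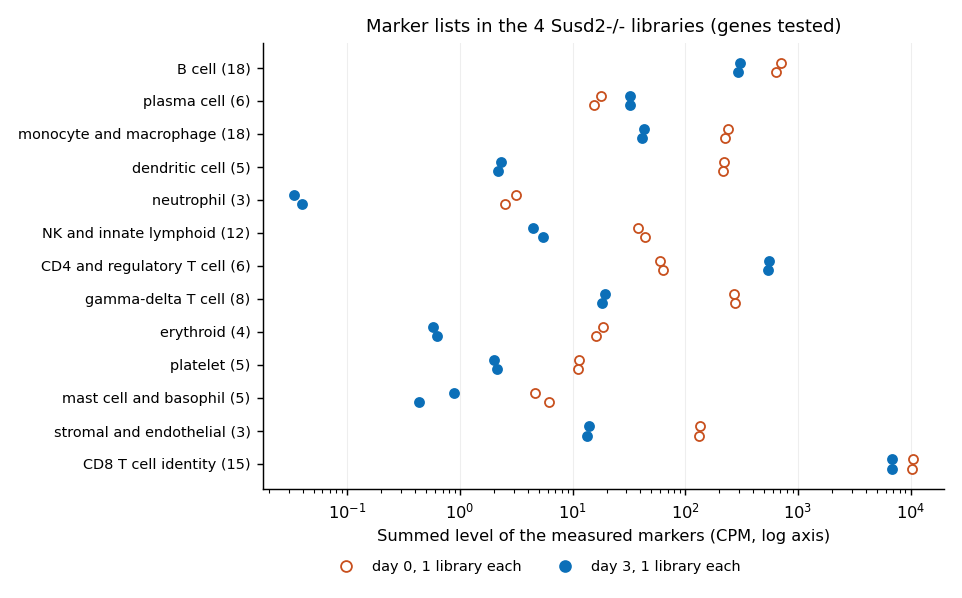
Summed level of the measured markers of each cell type (CPM, log axis) in the 2 day 0 libraries (open orange circles) and the 2 day 3 libraries (filled blue circles) of Susd2-/- cells, with the number of markers tested in parentheses. Every list of another cell type is lower at day 3 except the plasma cell and CD4 lists, nearly all of whose day 3 level is Sdc1 and Ctla4, and the day 0 level of the dendritic cell and stromal lists is nearly all Ccr9 and Pecam1.

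Some transcripts were counted on 1 day only. There were 149 genes (0.928% of those tested) with no count in either day 0 library that rose, and 385 (2.40%) with no count in either day 3 library that fell. Dclk1, a microtubule-associated kinase, had 1753 and 2872 counts at day 3 (at least 1166-fold higher, with 3 counts over the group as the floor). Among those lost, Slc40a1, an iron exporter of macrophages, went from 524 and 569 counts to none. Kcnc1, a potassium channel gene, went from 524 and 529 counts to none. The floors cover counting error only.

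Compared with WT cells, the day difference was largely shared. Of the genes that rose in Susd2-/- cells 5218 also rose in WT cells (88.6% of the Susd2-/- and 89.9% of the WT rises), and 5416 fell in both (84.9% and 86.4%). Opposite calls were made for 86 genes. Where the interaction passed the test, it was at least 2-fold in 358 of the 2164 genes. Among genes that rose in both genotypes with a called interaction, 441 rose more and 451 rose less in Susd2-/- cells, in similar numbers. The number of interaction calls depended on the day 0 libraries and was 1440 without Susd2-/- day 0 library 3, 1262 without library 4, 1305 without WT day 0 library 3 and 1176 without WT library 4.

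The gene with the smallest interaction p was Sik1, a kinase induced by cAMP and other early signals, with 304 and 309.6 CPM at day 0 and 63.8 and 61.3 CPM at day 3 in Susd2-/- cells and 77.2 and 76.6 and 70.1 and 68.8 CPM in WT cells (interaction -2.15 ± 0.0898, adjusted p = 4.76e-11). Klf6, a zinc finger factor of early responses, had 1041 and 996 and 197 and 203 CPM in Susd2-/- and 427 and 430.4 and 229 and 226 CPM in WT cells (interaction -1.44 ± 0.0818, adjusted p = 3.61e-09). For both genes the 2 genotypes lay nearer to each other at day 3 than at day 0. Gzmb gave a positive interaction (0.65 ± 0.123, adjusted p = 0.00217), with 24.8 and 26.0 CPM at day 0 and 6070.0 and 6522 CPM at day 3 in WT cells, but an adjusted p of 0.0715 with the day 0 libraries summed. Klf2 did not pass (-0.39 ± 0.268, adjusted p = 0.396), nor did Ifng (-0.63 ± 0.382, adjusted p = 0.377).

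**Figure D5:**
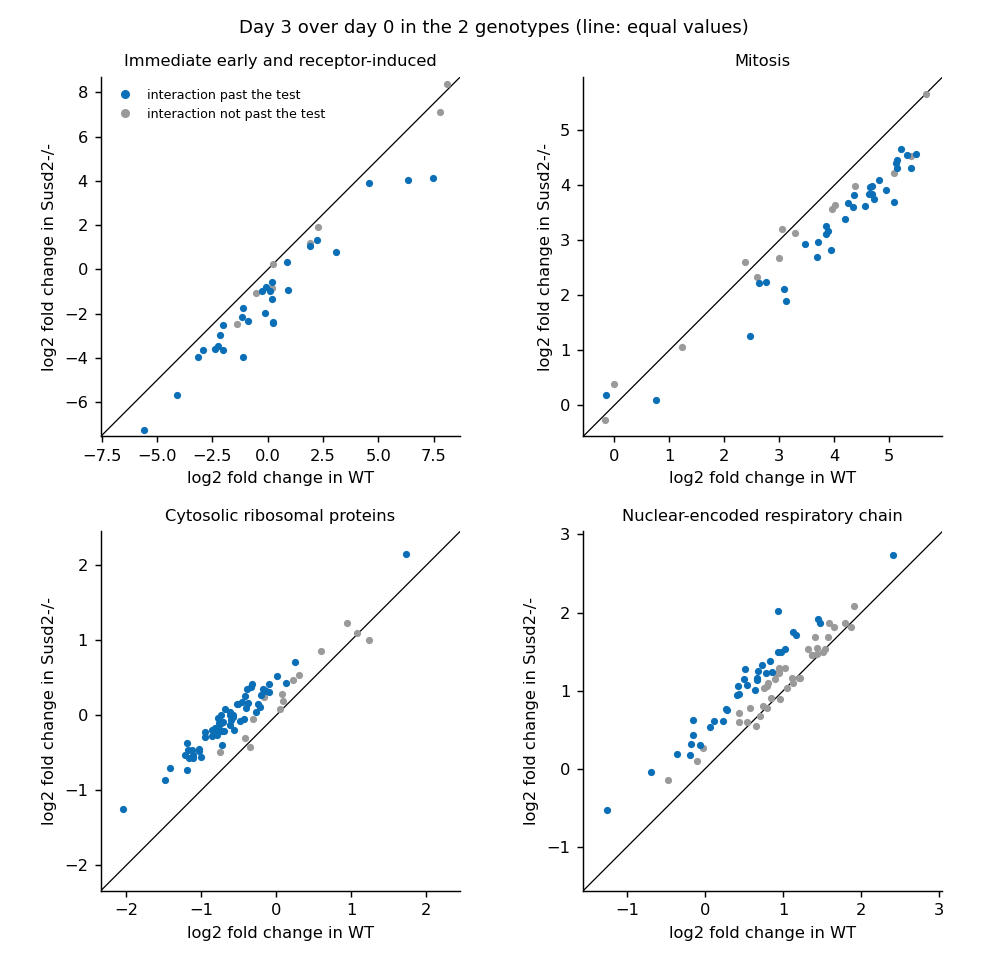
Log2 fold change between day 3 and day 0 in WT cells (x axis) and in Susd2-/- cells (y axis) for the members of 4 lists, 1 point a gene, with the line marking equal values and blue points having an interaction past the test. The 29 blue immediate early genes lie below the line, as do 33 of the 34 blue mitosis genes, while the 63 blue cytosolic ribosomal protein genes and the 36 blue respiratory chain genes lie above it.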

How the data were processed

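RNA was sequenced from CD8 T cells isolated with an EasySep kit, after poly(A) selection and with a kit that keeps strand, per the labels' protocols. The authors deposited raw counts per gene symbol, 1 column per lane, with no normalization. The tools listed in the submitters' processing notes are Subread 2.0.1, SAMtools 1.10, HISAT2 2.1.0 and fastp 0.23.2, with GRCm38 as the build. How strand and multi-mapped reads were treated, and the annotation release, is not given in the sources used here, so reads of overlapping, antisense or near-identical genes may be shared.

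Lane counts were summed per library (1 WT day 3 library had 1 lane). Groups and library numbers came from the labels. Of 27019 gene symbols, 16057 passed edgeR's filterByExpr. All 8 libraries were fitted together with edgeR 4.0.16 (trimmed mean of M-values scaling, robust quasi-likelihood test, 4 residual degrees of freedom, in R 4.3.3), with Benjamini-Hochberg adjustment over all 16057 genes and calls at an adjusted p below 0.05. The contrasts were day 3 minus day 0 in Susd2-/- cells, the same in WT cells, and their difference (the interaction). The SE of a log2 fold change was its size divided by the square root of the test's F. The script was tested on simulated counts. Gene positions came from the GENCODE M21 annotation of GRCm38, and promoter windows from RefSeq (GRCm38.p6). Depth was between 26829807 and 53846911 counts a library, and genes with few counts are given as counts or as bounds from a floor of 3 counts over the group.

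The alternatives tried were RLE, upper quartile and library total scaling, no low count filter, a test without robust estimation, lane 1 alone, the Susd2-/- libraries alone, a test against a 2-fold change, each library left out, the day 0 libraries of a group summed, limma 3.58.1 voom and DESeq2 1.42.0. Members and gene lists were chosen with earlier results of these data known, so their counts are descriptions. Genes named with values are the leading genes and those of smallest adjusted p within each list, the first members of each list as written, the genes of largest change in fold or level, genes at 0 on 1 day and genes of smallest interaction p. Tcf7, Id3, Dapl1, Cd86, Ighm, Pecam1, members named to complete a count of 5 or fewer, and the genes whose promoters are printed were chosen after their values were seen, the last as the rising gene of smallest adjusted p that holds the motif. Some genes that this choice would name are not reported here.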

Additional observations from a re-analysis of the deposited data

Results flagged for a closer look

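The results singled out here are those in which the day difference of Susd2-/- cells differed from that of WT cells by the test of the interaction (edgeR's quasi-likelihood test with Benjamini-Hochberg adjustment). It passed in 2164 genes. Of 196 genes named in the text 87 passed, 25 with a more positive and 62 with a more negative difference in Susd2-/- cells. The 28 with a size of at least 2-fold or described one by one have adjusted p between 4.76e-11 and 0.0269, and 23 of them also passed with the day 0 libraries of each genotype summed. The other 59 lay between 0.26 and 0.91 in size on the log2 scale. No cause of any of these differences was tested.

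Genes of the early response gave interactions of -3.34 for Atf3, -2.15 for Sik1, -1.73 for the clock gene Per1, -1.63 for Fos, -1.57 for Dusp1, -1.57 for Tnfaip3, -1.53 for Nr4a1 and -1.44 for Klf6 on the log2 scale. Per1 had 183 and 191 CPM at day 0 in Susd2-/- cells and 57.0 and 62.6 CPM in WT cells, against 44.5 and 43.3 and 49.9 and 43.6 CPM at day 3. Tnfaip3 had 618 and 622 CPM at day 0 and 29.8 and 35.5 CPM at day 3 in WT cells, and its day 0 level was therefore higher in Susd2-/- cells while the day 3 levels were close. Irf4, the factor that scales with receptor signals, gave -1.58, with WT levels of 13.6 and 12.5 and 539.6 and 573 CPM on the 2 days. Ctla4 gave -1.21 and Cd28 -1.01.

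Cell cycle genes with a more negative difference in Susd2-/- cells were Cdkn1a (-1.95), E2f1 (-1.19), Mki67 (-1.12), Cdc6 (-1.06) and Plk1 (-0.93). Mki67 rose by 2.82 in Susd2-/- cells and by 3.94 in WT cells. The summed levels of the mitosis list, given above, lay further apart between the genotypes at day 0 than at day 3. The histone genes H1f2 and H1f4 gave -1.80 and -2.34, but H1f4 had at most 4.30 and 2.94 CPM in any pair of libraries and lost its call without Susd2-/- day 0 library 3, Susd2-/- day 3 library 2, WT day 0 library 4 or WT day 3 library 2. Sdc1, which codes for syndecan-1, gave -1.77, Axl -1.32 and the stress-induced chaperone Hspa1b -1.44.

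The interferon-related genes named here did not share a direction. Iigp1 gave 4.16, Ly6a 1.98 and Gbp2 1.58, whereas Oas2 gave -1.20. In the guanylate-binding, Irg and antigen presentation list 17 of 27 genes passed, all 17 more positive in Susd2-/- cells. In the type I list 5 of 40 passed, 2 more positive and 3 more negative. Over all genes 6.60% passed as more positive and 6.88% as more negative. With the day 0 libraries of each genotype summed, 364 of all genes passed instead of 2164. The counts of both lists under that setting are not given here. Iigp1 stood at 43.7 and 39.5 CPM in WT cells at day 0 and Ly6a at 76.4 and 75.7 CPM, both above the Susd2-/- day 0 libraries given in the report. The call of Oas2 was lost without Susd2-/- day 0 library 3 or 4, Susd2-/- day 3 library 2 or WT day 0 library 4, and without WT day 3 library 2 its interaction was -0.61 (adjusted p = 0.471). That of Iigp1 was lost, at a size of 3.75 to 4.24, without Susd2-/- day 0 library 4, Susd2-/- day 3 library 2 or either WT day 0 library.

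Among effector genes and receptors, Gzmb gave 0.65, Ccl5 1.00 and Pdcd1 1.04. The interaction of Pdcd1 was 0.56 (adjusted p = 0.19) without Susd2-/- day 0 library 4 and 0.92 (adjusted p = 0.125) without WT day 0 library 4. With the day 0 libraries summed Gzmb, H1f4, Hspa1b, Iigp1 and Oas2 did not pass.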

How the results depend on the processing

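The day difference in Susd2-/- cells gave 11229 to 12757 called genes when each library was left out in turn and 10941 to 12564 over the other settings that test against no change. A test against a 2-fold change called 6752 genes, 3087 higher and 3665 lower at day 3. No gene called in the result as reported was called in the opposite direction under any alternative. The interaction count moved most. With the day 0 libraries of each genotype summed it was 364 (164 positive and 200 negative), and lane 1 alone gave 668 positive calls. With each library left out it ranged from 1176 to 2498, the positive calls from 590 to 1432 and the negative calls from 552 to 1416. DESeq2 called 2235 and limma voom 2170.

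Of 5199 values of single genes under an alternative, 4874 kept their direction and their side of the threshold. Among called genes, those that turned direction were Thy1 (-0.011 by library totals) and mt-Nd1 (-0.020 by upper quartile scaling and -0.034 by library totals). Of genes not called, Cd28 went from 0.012 to -0.18 and -0.19 under those scalings and was slightly negative under 4 other settings, Id3 went from 0.015 to between -0.19 and -0.022 under 5 settings, and Dapl1 went from -0.095 to 0.11 without Susd2-/- day 0 library 3. No paired analysis was possible because the sample descriptions number the libraries 1 and 2 at day 3 and 3 and 4 at day 0, so the days share no number. The sample titles instead count each lane as a replicate and start again at 1 on each day.

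With 2 libraries a day and 4 residual degrees of freedom, small changes rest on the spread pooled over both genotypes and days. The day 0 libraries differed little, and whether they are separate mice is not given. Depth limits only genes with few counts.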
